A study of Mus musculus with 8 samples.

Results

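Regenerative and fetal intestinal genes are genes that intestinal epithelium switches on when it repairs damage or during fetal life, and that are low in the resting adult crypt. The 7 genes described here, Ly6a, Clu, Spp1, Anxa1, Anxa3, S100a6 and Il1rn, were taken by name and matched by Ensembl identifier to the 38355 genes of the deposited count tables. All 7 were among the 16539 genes with enough reads to be tested. They were measured in 8 whole colon tumours, 1 per mouse, from mice treated with azoxymethane, a colon carcinogen. In 4 tumours the genotype was Trp53ΔIEC, in the field's notation loss of the tumour suppressor p53 in intestinal epithelial cells. In the other 4 it was Trp53ΔIECAktE17K, which adds an activating substitution of the kinase AKT. Azoxymethane and the loss of Trp53 are thus shared by both groups. The sources used here do not give the Cre line or the mice's age.

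In the damaged or fetal gut, cells lose markers of the Lgr5 stem cell and gain surface and secreted proteins such as Ly6a (Sca-1) and clusterin, a state that depends on the transcriptional coactivator YAP and its TEAD partners. Annexins and S100 proteins are calcium-binding proteins at the membrane and in the cytoplasm, and rise in many injured epithelia. None of the 7 genes is specific to epithelium: Spp1 is also made by macrophages and stromal cells, Ly6a by vessels and lymphocytes, and Anxa1, Anxa3 and Il1rn by neutrophils. In whole tumours fewer cells of a type and less RNA per cell cannot be told apart.

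Each library held 18572180 to 26268547 reads assigned to genes. Levels are given as CPM, that is read counts scaled to a common library size (CPM in edgeR), after scaling of the library sizes by the trimmed mean of M-values (TMM), and n is 4 tumours per group. The epithelial markers Epcam, Cdh1, Krt8, Krt18, Krt19, Krt20, Vil1, Cldn7 and Cdx2 were read in every tumour and summed to 9364 to 11699 CPM in Trp53ΔIEC and 5530 to 11324 CPM in Trp53ΔIECAktE17K tumours. Heart muscle markers were called higher in 5 of 7 tested and lower in 0, with sums of 36.7 to 115.1 CPM in Trp53ΔIEC and 149.8 to 216.7 CPM in Trp53ΔIECAktE17K tumours. One of them, Myh6, was at 47.6 to 57.0 CPM in all 4 Trp53ΔIECAktE17K libraries and at most 0.223 CPM in the others. Of 8 hepatocyte markers tested 1, Crp, was called lower, at 4.80 to 5.64 CPM in Trp53ΔIEC and at most 0.0423 CPM in Trp53ΔIECAktE17K libraries, and 5 had an unadjusted p under 0.05. The hepatocyte sums overlapped, at 51.1 to 84.5 CPM in Trp53ΔIEC and 12.1 to 134.6 CPM in Trp53ΔIECAktE17K tumours, highest in replicate 3, where Fgb alone had 126.3 CPM. The source of the heart muscle and hepatocyte marker reads, and their part in the results below, was not tested.

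Of the 7 genes, Spp1 was higher in Trp53ΔIECAktE17K tumours and the other 6 did not pass the test. That is 1 of 7 called higher and 0 called lower (edgeR quasi-likelihood test, adjusted p under 0.05), where 4.2% of all 16539 genes were called, 3.44% higher and 0.756% lower. Only Spp1 had an unadjusted p under 0.05 among the 7, and DESeq2 also called 1 higher and 0 lower, while limma-voom called 0. Non-overlapping groups were seen for Spp1 alone, 1 of 7 or 14.3%, beside 14.2% of all genes (8.34% higher and 5.88% lower). The log2 fold changes of Trp53ΔIECAktE17K over Trp53ΔIEC were above 0 in 5 genes and below 0 in 2, with a median of 0.12 beside 0.01 over all genes tested.

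**Figure D1:**
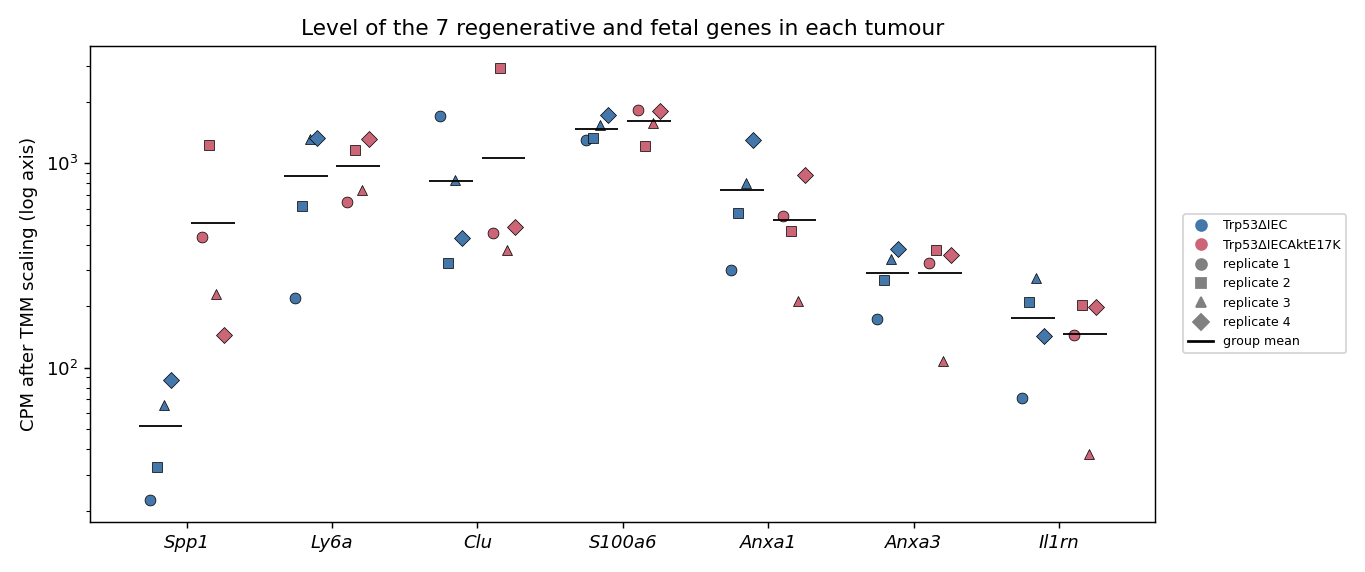
Level of each of the 7 genes in CPM (vertical log axis) in each of the 8 tumours, blue for Trp53ΔIEC and red for Trp53ΔIECAktE17K, with the symbol giving the replicate and the line the group mean. Spp1 is the gene in which all 4 red points lie above all 4 blue points; in the other 6 the groups overlap.

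Spp1 (ENSMUSG00000029304, chromosome 5, 104435118 to 104441050, plus strand, mm10) encodes osteopontin, a secreted matrix phosphoprotein that binds CD44 and integrins. Its level was 22.5, 32.6, 66.0 and 87.1 CPM in Trp53ΔIEC replicates 1 to 4, and 438.1, 1227, 230.9 and 144.2 CPM in Trp53ΔIECAktE17K replicates 1 to 4. Every Trp53ΔIECAktE17K tumour lay above every Trp53ΔIEC tumour, and replicate 2 was the highest. Behind these values stand 589 to 1872 reads per Trp53ΔIEC and 3097 to 29805 reads per Trp53ΔIECAktE17K library, so counting error is small beside the spread between tumours. The group means were 52.0 ± 29.9 and 509.9 ± 493.4 CPM (SD, n = 4 each). This was a rise of 3.29 ± 0.75 (SE) on the log2 scale, or 9.80-fold with a 95% interval of 2.98-fold to 32.2-fold (edgeR quasi-likelihood test, adjusted p = 0.0496). A log2 fold change at least as large was found in 1.83% of all genes tested. By its p-value Spp1 was 688th of the 694 called genes.

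Spp1 no longer passed in 7 of the 8 edgeR runs that each dropped a tumour. Dropping Trp53ΔIEC replicate 1, 2, 3 or 4 gave an adjusted p of 0.101, 0.138, 0.116 or 0.102. Dropping replicate 1, 2 or 3 of Trp53ΔIECAktE17K gave 0.108, 0.0826 or 0.0511. The run that dropped Trp53ΔIECAktE17K replicate 4, the lowest of its group, kept the call at 0.0298. The fold change in these 8 runs was 5.17-fold without Trp53ΔIECAktE17K replicate 2 and 8.21-fold to 12.6-fold without any other tumour. Over all alternatives the adjusted p ranged from 6.52e-05 with DESeq2 to 0.230, and the log2 fold change stayed above 0 in each. The largest adjusted p came with the letter of the sample titles as a term, which also lowered the log2 fold change to 1.85, or 3.60-fold. Trp53ΔIECAktE17K replicates 1 and 2 carry the letter A and the remaining 6 tumours carry B, with no meaning stated for either. With this term the genotype difference thus rests on Trp53ΔIECAktE17K replicates 3 and 4 against the Trp53ΔIEC tumours. Among tumours with the letter B alone, Spp1 was at 144.2 and 230.9 CPM in Trp53ΔIECAktE17K and at up to 87.1 CPM in Trp53ΔIEC.

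**Figure D2:**
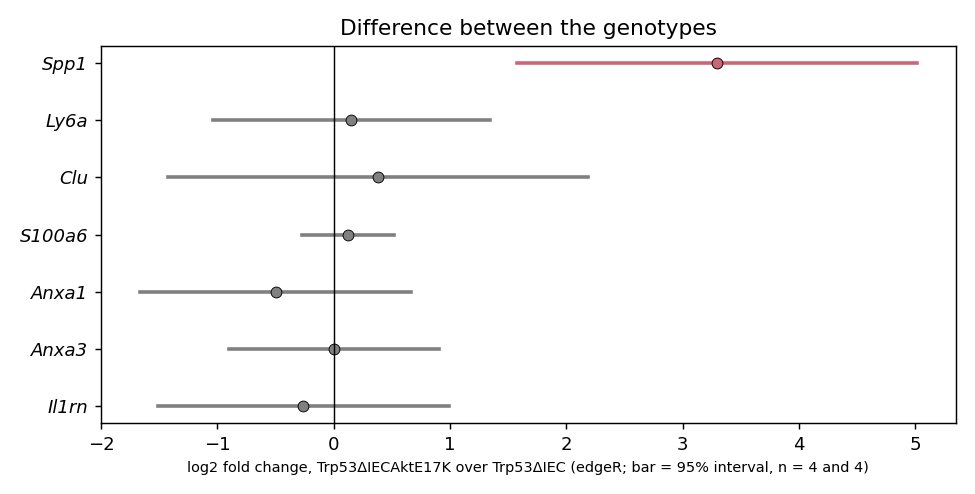
Log2 fold change of Trp53ΔIECAktE17K over Trp53ΔIEC (horizontal axis) for each of the 7 genes, with the 95% interval of the edgeR fit as a bar (4 tumours per group). The interval of Spp1, in red, runs from 1.57 to 5.01; the intervals of the other 6, in grey, include 0.

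The 250 bases before an annotated start of Spp1 are shown because, of the 7 genes, it alone passed the edgeR test. With them are those of Anxa1 and Il1rn, which did not pass, as windows with a match to the strings below. S100a6, which did not pass either, had a window without a match that is not shown. The windows come from RefSeq on GRCm38.p6, where 4 of the 7 genes had windows, 7 in all. They were searched on both strands for GGAATG, bound by TEAD factors, and TGANTCA, bound by AP-1 factors, and matches are in capitals. Spp1 lies at chr5:104434861-104435110 on the plus strand, Anxa1 at chr19:20390672-20390921 on the minus strand and Il1rn at chr2:24336610-24336859 on the plus strand.
Spp1: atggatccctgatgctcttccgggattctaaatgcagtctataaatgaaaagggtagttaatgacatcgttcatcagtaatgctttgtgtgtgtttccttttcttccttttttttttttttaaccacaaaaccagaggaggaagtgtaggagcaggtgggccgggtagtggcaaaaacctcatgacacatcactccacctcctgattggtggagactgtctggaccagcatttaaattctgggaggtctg
Anxa1: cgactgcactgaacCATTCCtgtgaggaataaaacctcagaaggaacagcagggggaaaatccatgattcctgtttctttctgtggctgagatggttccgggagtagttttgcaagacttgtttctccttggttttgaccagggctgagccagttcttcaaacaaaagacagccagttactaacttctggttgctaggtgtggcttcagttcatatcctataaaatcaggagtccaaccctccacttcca
Il1rn: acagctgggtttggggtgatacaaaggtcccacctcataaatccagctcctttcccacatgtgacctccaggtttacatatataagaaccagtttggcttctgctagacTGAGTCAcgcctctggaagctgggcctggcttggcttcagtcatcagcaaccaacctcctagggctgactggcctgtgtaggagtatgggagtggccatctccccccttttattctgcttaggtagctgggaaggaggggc
Neither string occurred in the Spp1 window shown, in the other Spp1 window or in that of S100a6. Anxa1 held 1 TEAD match, and the Il1rn window shown held 1 AP-1 match. Another Il1rn window held 1 TEAD match. In all, 2 of the 7 windows held a TEAD match and 1 an AP-1 match. Of 32851 windows of this length over all genes, 12.6% held the TEAD string and 6.75% the AP-1 string. A match is a run of letters and not a measured binding site.

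Ly6a (chromosome 15, 74994877 to 74998031, minus strand) encodes Sca-1, a lipid-anchored surface protein used to mark the regenerative epithelium. Its level was 220.4, 617.4, 1322 and 1328 CPM in Trp53ΔIEC replicates 1 to 4 and 648.6, 1167, 738.3 and 1319.9 CPM in Trp53ΔIECAktE17K replicates 1 to 4. The groups overlapped, and the lowest tumour was Trp53ΔIEC replicate 1, at 6.02-fold below the highest of its group. The log2 fold change was 0.15 ± 0.52 (SE), with a 95% interval of -1.04 to 1.34 (edgeR adjusted p = 0.903). The interval includes a 2.54-fold rise and a fall to 0.486 of the Trp53ΔIEC level.

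Clu (chromosome 14, 65968483 to 65981547, plus strand) encodes clusterin, a secreted chaperone that marks the revival stem cells of injured intestine. In Trp53ΔIEC replicates 1 to 4 it had 1697, 323.9, 830.8 and 429.4 CPM, and in Trp53ΔIECAktE17K replicates 1 to 4 it had 457.1, 2944, 376.8 and 491.2 CPM. A single tumour in each genotype was high, and the other Trp53ΔIECAktE17K tumours lay within the range of Trp53ΔIEC. Relative to the mean, Clu had the largest SD of the 7 genes in both groups, at 76.1% and 117%. Its log2 fold change was 0.38 ± 0.79 (edgeR adjusted p = 0.827). Without Trp53ΔIECAktE17K replicate 2 it was -0.91, so 1 tumour set its direction.

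S100a6 (chromosome 3, 90612882 to 90624181, plus strand) encodes calcyclin, a small calcium sensor of proliferating and injured epithelium and of fibroblasts. It was the steadiest of the 7 genes, with 1301 to 1718 CPM in Trp53ΔIEC and 1219 to 1828 CPM in Trp53ΔIECAktE17K tumours. The means were 1476 ± 195.4 and 1609 ± 284.7 CPM (SD, n = 4 each), and the groups overlapped. The 95% interval of the fold change was 0.829 to 1.43 (edgeR adjusted p = 0.729), the narrowest of the 7.

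Anxa1 (chromosome 19, 20373428 to 20390944, minus strand) encodes annexin A1, which resolves inflammation through formyl peptide receptors. It had 300.1, 573.8, 800.3 and 1305 CPM in Trp53ΔIEC replicates 1 to 4 and 550.2, 467.8, 211.4 and 876.2 CPM in Trp53ΔIECAktE17K replicates 1 to 4. The groups overlapped, and the log2 fold change was -0.50 ± 0.51 (SE), with a 95% interval of -1.67 to 0.67 (edgeR adjusted p = 0.625). Anxa3 (chromosome 5, 96793339 to 96845966, plus strand), a related membrane-binding annexin, had 173.7, 268.3, 342.4 and 383.2 CPM against 326.0, 378.4, 108.5 and 354.7 CPM. Its mean was 291.9 CPM in both groups, with SDs of 92.0 and 124.2 CPM and a 95% interval of 0.535-fold to 1.87-fold. The sign of its difference flipped between settings, as its size was close to 0.

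Il1rn (chromosome 2, 24336853 to 24351494, plus strand) encodes the interleukin-1 receptor antagonist, a secreted inhibitor of that cytokine. In Trp53ΔIEC replicates 1 to 4 its level was 70.9, 209.6, 276.1 and 143.5 CPM, and in Trp53ΔIECAktE17K replicates 1 to 4 it was 145.0, 202.9, 37.9 and 197.9 CPM. The lowest and the highest of the 8 tumours were thus Trp53ΔIECAktE17K replicate 3 and Trp53ΔIEC replicate 3, with the rest of the groups mixed. The log2 fold change was -0.26 ± 0.55 (SE), with a 95% interval of -1.52 to 0.99 (edgeR adjusted p = 0.828).

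Tumours of the same genotype differed from each other in several of these genes at once. Trp53ΔIEC replicate 1 was the lowest of its group in 6 of the 7 genes and the highest in the other, Clu. Trp53ΔIECAktE17K replicate 3 was the lowest of its group in 4 of 7: Clu, Anxa1, Anxa3 and Il1rn. The same counts were not made over all genes tested, so these are descriptions of the 7 genes only. Counted from each gene's own mean log2 CPM over the 8 tumours, the deviations of Anxa1, Anxa3 and Il1rn in that tumour were -1.38, -1.32 and -1.86. Spp1 did not follow them there, with a deviation of 0.84. In Trp53ΔIECAktE17K replicate 2, Spp1 and Clu were both high, with deviations of 3.25 and 2.10. The macrophage markers summed to 238.7 CPM in Trp53ΔIECAktE17K replicate 3 and to 551.2 to 724.3 CPM in the other 3 of its group, and the epithelial markers to 5530 and to 6084 to 11324 CPM. The neutrophil markers summed to 216.5 CPM there and to 296.0 to 955.1 CPM in the other 3. Sums of T cell, endothelial, fibroblast, squamous, mesothelial and heart muscle markers were also lowest of the group in that tumour. Those of smooth muscle and hepatocyte markers were not. In Trp53ΔIEC replicate 1 the macrophage markers summed to 322.2 CPM, beside 323.6 to 650.7 CPM in the other 3. Its neutrophil markers summed to 358.3 CPM, beside 305.1 to 574.9 CPM. The part of these cell types in the pattern was not tested.

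**Figure D3:**
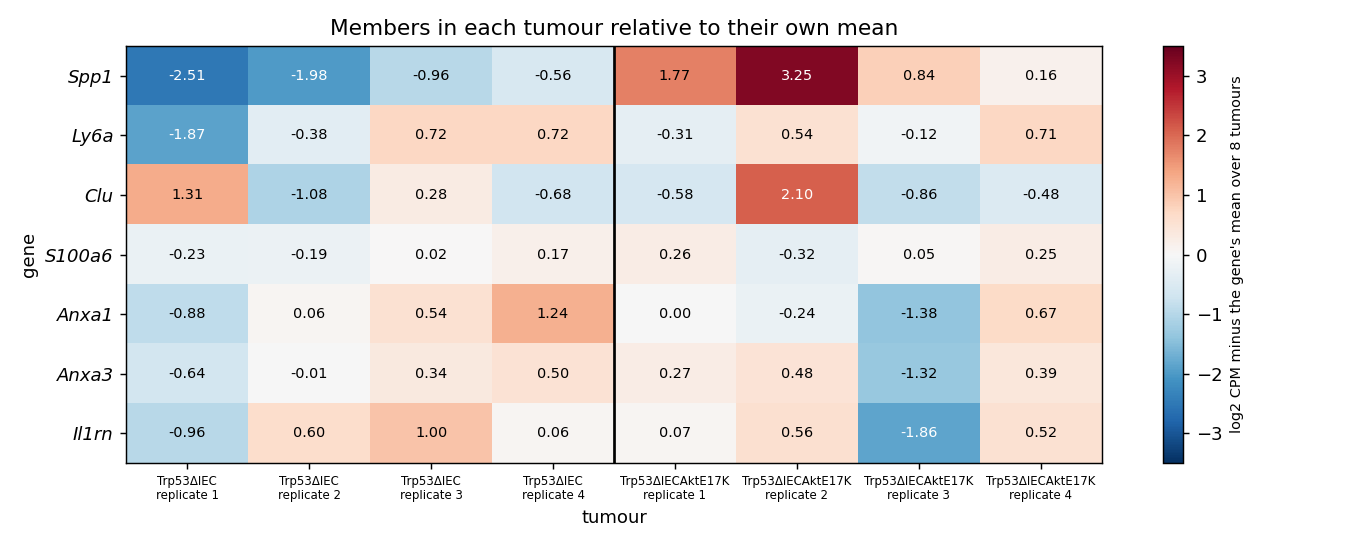
Log2 CPM of each gene minus its own mean over the 8 tumours (colour and number), by gene (rows) and tumour (columns), with the line separating the genotypes. The row of Spp1 is below 0 in all 4 Trp53ΔIEC and above 0 in all 4 Trp53ΔIECAktE17K tumours; Anxa1, Anxa3 and Il1rn are lowest in Trp53ΔIECAktE17K replicate 3.

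Per kilobase of exon, a scale on which genes can be compared with each other, the order of mean levels in Trp53ΔIEC tumours was S100a6, Ly6a, Anxa1, Clu, Anxa3, Il1rn and Spp1. S100a6 had 1080 ± 143.0 and Spp1 31.6 ± 18.1 CPM per kilobase (SD, n = 4). In Trp53ΔIECAktE17K tumours Spp1 came next after Clu, at 309.4 ± 299.4 CPM per kilobase, with S100a6 and Ly6a above both, but Clu was above Spp1 in 2 of 4 tumours. Without Trp53ΔIECAktE17K replicate 2 the means of the other 3 tumours were 187.5 for Anxa1, 164.5 for Spp1 and 128.5 CPM per kilobase for Clu, so that tumour sets their order. The ranges of neighbours in the order overlapped in both groups. Within tumours, S100a6 was above Ly6a in 4 of 4 Trp53ΔIEC and 3 of 4 Trp53ΔIECAktE17K tumours. Exon lengths are those of all annotated transcripts merged, which lowers the value of genes with long alternative exons such as Il1rn.

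Spp1 was set beside markers of the cell types that can make it. None of the 7 macrophage markers passed the test, and their sums overlapped between the groups, at 322.2 to 650.7 and 238.7 to 724.3 CPM. Each of the 7 was read in every tumour, and 1, Cd68, had an unadjusted p under 0.05. Cd68, a lysosomal protein gene of macrophages, had 30.3, 37.5, 34.2 and 22.0 CPM in Trp53ΔIEC and 45.4, 147.2, 41.3 and 43.0 CPM in Trp53ΔIECAktE17K tumours, without overlap (edgeR adjusted p = 0.182). Of the fibroblast markers 3 of 7 rose and 0 fell. All 7 had an unadjusted p under 0.05, 6 with a log2 fold change above 0 and 1, Pdgfra, below 0 (-0.84, edgeR adjusted p = 0.225). Their sums were 2165 to 3324 CPM in Trp53ΔIEC and 4103 to 6665 CPM in Trp53ΔIECAktE17K tumours. Of the smooth muscle markers 6 of 6 rose, from sums of 261.1 to 438.9 CPM to sums of 1060 to 1726 CPM. Of the squamous markers 4 of 8 rose, with sums of 58.2 to 240.8 and 216.1 to 15407 CPM, highest in Trp53ΔIECAktE17K replicate 1. All 8 had a log2 fold change above 0, with a median of 5.82, and 7 had an unadjusted p under 0.05. The sums of this list overlapped between the groups, and its mean log2 CPM did not. None of these fibroblast or smooth muscle markers was at 0 in any tumour, and 1 squamous marker, Krtdap, was at 0 in some. Markers of neutrophils (0 of 7 called), T cells (0 of 7), endothelium (0 of 7) and epithelium (0 of 9) did not pass, with 1, 0, 4 and 4 at an unadjusted p under 0.05. Mesothelial markers were tested for 2 of 4 genes, and 1, Wt1, was called higher. Their sums were 28.8 to 106.4 CPM in Trp53ΔIEC and 14.4 to 327.5 CPM in Trp53ΔIECAktE17K tumours. The highest sum was in Trp53ΔIECAktE17K replicate 2, where Msln alone had 321.2 CPM. Msln is also among the 18 other regenerative and fetal genes described below. The part of all these cells in the rise of Spp1 was not tested. Among the 4 Trp53ΔIECAktE17K libraries Spp1 varied 8.50-fold, and the heart muscle gene Myh6 varied 1.197-fold. Any link of Spp1 to the reads of the heart muscle markers was not tested.

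**Figure D4:**
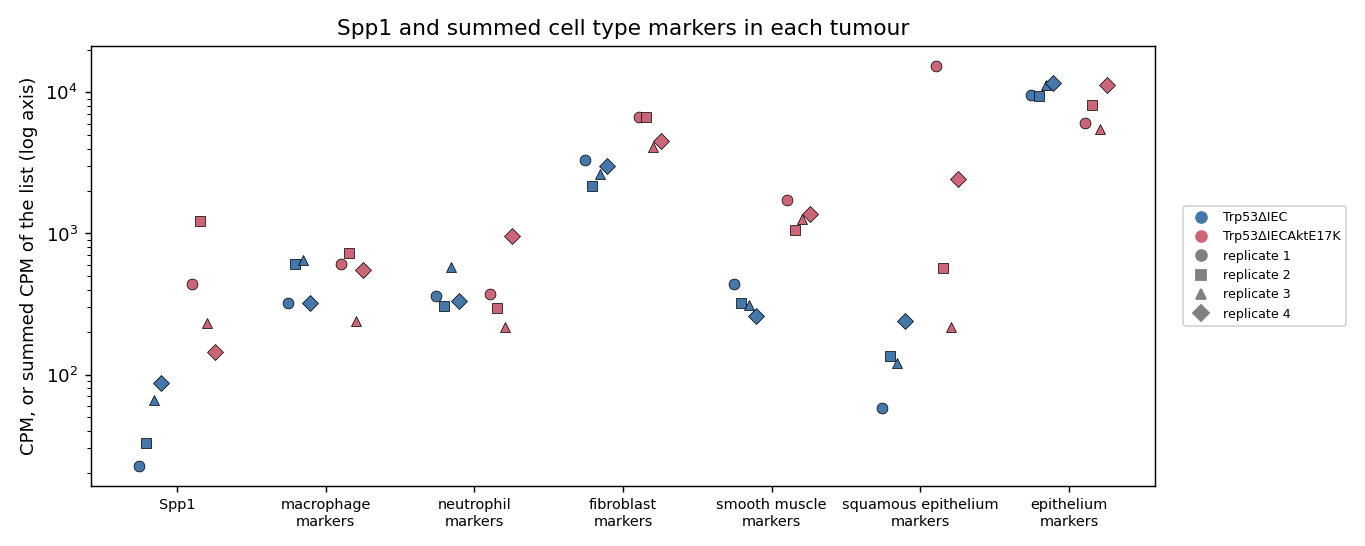
Spp1 in CPM and the summed CPM of 6 cell type marker lists (vertical log axis) in each tumour, blue for Trp53ΔIEC and red for Trp53ΔIECAktE17K, with the symbol giving the replicate. The groups are apart for Spp1, fibroblast and smooth muscle markers, and the sums overlap for macrophage, neutrophil, squamous and epithelial markers. For the squamous list the mean log2 CPM, not drawn here, did not overlap.

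The genes nearest to Spp1 in profile were Hand2, a mesenchymal transcription factor, Gldc, the glycine decarboxylase, and Ccl3, a chemokine of macrophages and neutrophils. Nearness was the mean absolute difference, over the 8 tumours, of log2 CPM centred on each gene's mean, among 13304 genes. It was 0.324 for Hand2, 0.347 for Gldc and 0.434 for Ccl3, beside a median of 1.53 over all candidates. In Trp53ΔIECAktE17K replicates 1 to 4 Hand2 had 7.24, 17.0, 3.95 and 3.35 CPM, in the same order of tumours as Spp1. In Trp53ΔIEC replicates 1 to 4 it was low, at 0.191, 0.451, 0.782 and 0.651 CPM, and in another order than Spp1. Since these genes were chosen for their likeness to Spp1, no test is given. Ly6a was nearest to Ly6c1, its paralogue (0.227), and Anxa1 to Gcnt1 (0.213) and S100a10 (0.217), the partner of annexin A2. Nearest to Anxa3, S100a6, Il1rn and Clu were Fam241a (0.0954), Plpp5 (0.0783), Exoc3l4 (0.137) and Hacd4 (0.419).

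Around these 7 genes, 10 related lists held 96 other tested genes, of which 3 were higher and 3 lower, 6.25% in all beside 4.2% of all genes. Their median log2 fold change was 0.38. None of 18 other regenerative and fetal genes passed, with 2 at an unadjusted p under 0.05 and 0 called by DESeq2 or limma-voom. Their median log2 fold change was 0.56, with 13 above 0. Among them Plaur, the urokinase receptor, had a log2 fold change of 0.80 (edgeR adjusted p = 0.162). The growth factor gene Ereg had 85.7, 54.2, 24.0 and 31.5 CPM against 55.7, 116.8, 71.9 and 206.6 CPM (edgeR adjusted p = 0.224). The tight junction gene Cldn4 had a log2 fold change of -0.75 (edgeR adjusted p = 0.254).

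YAP target genes rose in 3 of 12 tested members, Ccn2, Ankrd1 and Ptpn14. The phosphatase gene Ptpn14, a negative regulator of YAP, had 14.04, 12.1, 17.6 and 22.9 CPM in Trp53ΔIEC and 59.1, 50.9, 102.7 and 25.4 CPM in Trp53ΔIECAktE17K tumours. The groups did not overlap, at a log2 fold change of 1.84 ± 0.41 (SE, edgeR adjusted p = 0.0463). Ccn2, a matricellular protein gene also abundant in fibroblasts, and Ankrd1, a muscle and stress response gene, rose by 2.31 and 3.04 on the log2 scale. The list's median was 0.38, and Tead1 itself, the DNA-binding partner of YAP, was at -0.06 (edgeR adjusted p = 0.867). Summed over the list, YAP targets were higher in every Trp53ΔIECAktE17K than in any Trp53ΔIEC tumour. The same held for the sums of the fibroblast (3 of 7 called higher), smooth muscle (6 of 6) and heart muscle markers (5 of 7), whose ranges are given beside Spp1 and with the libraries. The part of these tissues in the YAP targets' rise was not tested.

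Of 12 genes of the adult crypt stem cell 2 fell and 0 rose, while DESeq2 called 3 lower and 1 higher. Among these 12 genes, 9 had a log2 fold change below 0 and 3 had one above 0, around a middle value of -0.27. At an unadjusted p under 0.05 there were 5, of which Smoc2 and Lrig1 had log2 fold changes of 1.52 and 1.55 (edgeR adjusted p = 0.0894 and 0.181). Axin2, also among the 5, had a log2 fold change of -1.39 (edgeR adjusted p = 0.0752), with overlap between the groups. Slc12a2, the basolateral sodium-potassium-chloride transporter gene of crypt base cells, had 249.8, 561.7, 497.1 and 402.5 CPM in Trp53ΔIEC and 189.1, 181.7, 178.0 and 242.5 CPM in Trp53ΔIECAktE17K tumours. It fell by 1.11 on the log2 scale (SE 0.25, edgeR adjusted p = 0.0472), with no overlap between the groups. Ascl2, a transcription factor of the Lgr5 stem cell, fell by 1.96 (SE 0.43, edgeR adjusted p = 0.0463). Lgr5 itself had 11.9, 10.4, 55.6 and 17.0 CPM against 31.5, 45.4, 227.3 and 11.7 CPM, a log2 fold change of 1.74 that did not pass (edgeR adjusted p = 0.332). Of the 9 epithelial markers 8 had a log2 fold change below 0, with 4 at an unadjusted p under 0.05 and 0 called by edgeR. The part of the epithelial share in the stem cell genes was not tested.

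In the families and binding partners of the 7 genes, 1 gene passed. Of 12 annexin genes Anxa7 fell, from 339.1, 354.3, 355.3 and 321.6 CPM to 220.7, 229.8, 254.1 and 259.8 CPM (log2 fold change -0.51, SE 0.11, edgeR adjusted p = 0.0428). It was steadier within groups than Anxa1 or Anxa3. Of the S100 family 13 of 15 were tested and none passed (3 at an unadjusted p under 0.05, 3 called by DESeq2, which fitted all 15), and S100a13 and S100a3 had adjusted p-values of 0.142 and 0.158 in edgeR. Of the Ly6 family 14 of 16 were tested and none passed (3 at an unadjusted p under 0.05, 1 of 15 called by DESeq2). Lypd3, a squamous member of that family, had 134.8, 14.9, 5.29 and 80.7 CPM in Trp53ΔIECAktE17K tumours against 1.203 to 5.12 CPM (edgeR adjusted p = 0.0525). Psca had 170.0 CPM in Trp53ΔIECAktE17K replicate 1 and at most 4.03 CPM in the other 7 tumours. Among the 10 receptor subunits of osteopontin none passed (3 at an unadjusted p under 0.05, 0 called by DESeq2). The integrin genes Itga9 and Itga5 had log2 fold changes of 0.78 and 1.07 (edgeR adjusted p = 0.136 and 0.158). Neither of the formyl peptide receptor genes tested, Fpr1 and Fpr2, passed (0 at an unadjusted p under 0.05, 0 called by DESeq2), and Fpr3 had no read in any tumour. Of the clusterin receptors 0 of 3 passed, and Trem2, also a receptor of lipid-laden macrophages, had a log2 fold change of 1.24 (edgeR adjusted p = 0.141, 1 at an unadjusted p under 0.05, 1 of 4 called by DESeq2). The interleukin-1 axis had 0 of 8 called (2 at an unadjusted p under 0.05, 1 called by DESeq2). Il1a had 3.87, 10.8, 9.11 and 7.45 CPM against 22.3, 64.4, 12.3 and 29.8 CPM without overlap (edgeR adjusted p = 0.0730), and Il1b had a log2 fold change of 1.54 (edgeR adjusted p = 0.220).

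**Figure D5:**
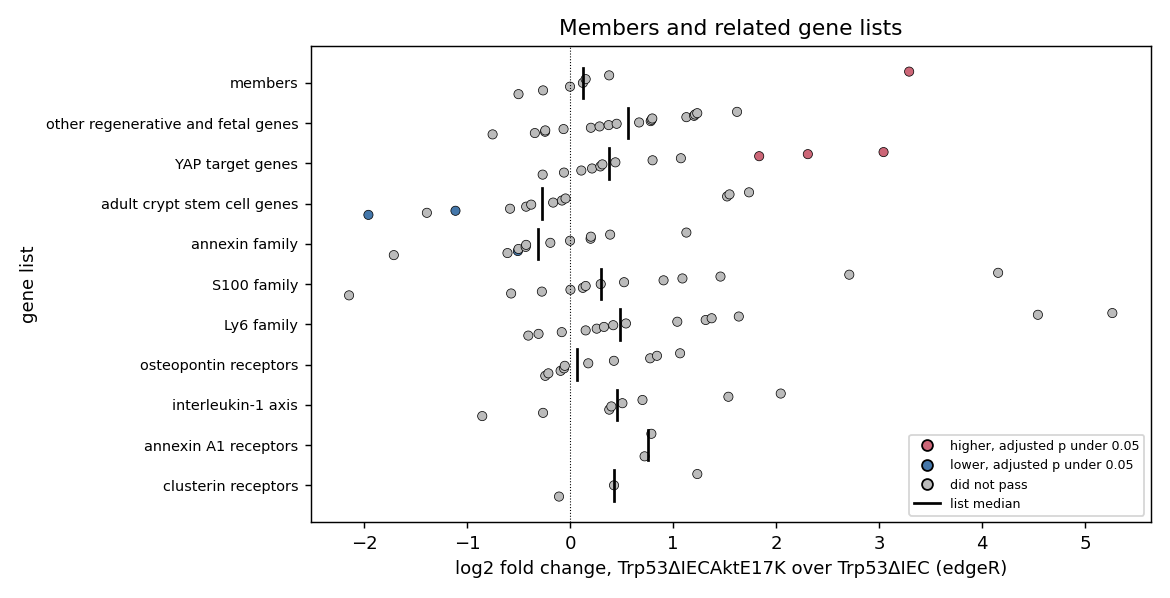
Log2 fold change of Trp53ΔIECAktE17K over Trp53ΔIEC (horizontal axis) of every tested gene in the 7 genes ("members") and in 10 related lists, red where higher and blue where lower at an adjusted p under 0.05, grey where the gene did not pass, with the list median as a line. Red points are Spp1 and 3 YAP targets; blue points are 2 stem cell genes and Anxa7.

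The calls of the 6 related genes also changed with single tumours and with the title letter. Ptpn14 kept its call in 1 of the 8 runs that left out a tumour, that without Trp53ΔIECAktE17K replicate 4, and otherwise had an adjusted p of 0.0616 to 0.128. Ascl2 kept it without Trp53ΔIECAktE17K replicate 3 alone, with 0.0600 to 0.118 in the other 7 runs. Slc12a2 kept it without Trp53ΔIEC replicate 1 or Trp53ΔIECAktE17K replicate 4, with 0.0825 to 0.120 in the other 6. Anxa7 kept it without Trp53ΔIECAktE17K replicate 3 or 4, with 0.0811 to 0.117 in the other 6. Ankrd1 lost it without any 1 Trp53ΔIEC tumour or Trp53ΔIECAktE17K replicate 1 (0.0665 to 0.0893), and Ccn2 without Trp53ΔIEC replicate 2, 3 or 4 (0.0587 to 0.0733). The log2 fold changes in those runs were 1.45 to 2.07 for Ptpn14, -2.15 to -1.64 for Ascl2, -1.31 to -0.96 for Slc12a2, -0.56 to -0.49 for Anxa7, 2.42 to 3.31 for Ankrd1 and 2.05 to 2.50 for Ccn2. With the title letter as a term, the genotypes were compared among tumours with the letter B alone. The edgeR adjusted p was then 0.147 for Ptpn14, 0.119 for Ascl2, 0.233 for Slc12a2, 0.223 for Anxa7 and 0.0821 for Ankrd1. These calls thus ended. Ankrd1 then had a log2 fold change of 1.91, and Ccn2 kept its call at 1.64 (adjusted p = 0.0495).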

How the data were processed

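Per the labels' protocols, the RNeasy Mini Kit gave the RNA and the TruSeq mRNA v2 kit, which does not mark strand, the libraries. The authors deposited raw read counts per Ensembl gene for each of the 8 tumours. The submitters' processing notes name DESeq2 1.8.1, HTSeq 0.6, SAMtools 1.2, STAR 2.3.0, CASAVA 1.8.2 and mm10, with no role for each; the annotation release and strand setting were not stated. The closing lines of each table, which count unassigned reads, were left out (reads in no feature came to 9.74% to 11.7% of uniquely aligned reads, and those of more than 1 gene to 1.93% to 2.32%). Because only uniquely aligned reads were counted, reads shared by near-identical paralogues, such as Ly6 genes, are missing from their levels. Symbols, positions and exon lengths came from GENCODE M21 on GRCm38 (36602 of 38355 identifiers matched) and promoter windows from RefSeq on GRCm38.p6. Exons of Spp1 and Anxa3 share 309 and 112 bases with same-strand models that are not used in the tables.

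All genes were tested together with edgeR 4.0.16 in R 4.3.3 (filterByExpr, TMM, robust quasi-likelihood F-test, group as the only term), and p-values were adjusted by Benjamini-Hochberg over the 16539 genes tested. Intervals of 95% use the fit's SE and degrees of freedom. Alternatives were DESeq2 1.42.0, limma-voom (limma 3.58.1), other scalings and filters, non-robust dispersions, the replicate number or title letter as a term, and leaving out each tumour. The code was tested on simulated data. The 7 genes and all lists were chosen with earlier results of these data known, so list counts are descriptions. Genes named are the 7, up to 3 per list with the smallest adjusted p, and up to 3 nearest in profile (log2 CPM with prior count 2, average log2 CPM of at least 1); Lgr5, Smoc2, Lrig1, Tead1, Fpr3, Pdgfra, Fgb and the other epithelial and marker genes outside that rule were added after their values were seen, as was the order per kilobase without 1 tumour.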

Additional observations from a re-analysis of the deposited data

Results flagged for a closer look

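The 7 genes, the up to 3 genes of each related list with the smallest adjusted p and the 3 genes nearest to Spp1 were checked for single tumours far from the other 3 of their group. Of 78 groups from 39 genes 7 held such a tumour, where chance gives about 1 in 20 groups if values are normally distributed. CPM values are skewed, the genes were chosen by their p-values or likeness to Spp1, and the set was changed after results of this check had been seen, so the count is not read against that rate. Clu reached 2944 CPM in Trp53ΔIECAktE17K replicate 2, the rest of that group having 376.8 to 491.2 CPM. Ascl2 had 3.15 CPM in Trp53ΔIECAktE17K replicate 3, against 12.9 to 14.7 CPM. Psca had 3.54 CPM in Trp53ΔIEC replicate 4, against 0.230 to 0.559 CPM, and 170.0 CPM in Trp53ΔIECAktE17K replicate 1, against 0.588 to 4.03 CPM. Itga9 had 68.4 CPM in Trp53ΔIECAktE17K replicate 3, against 34.4 to 39.6 CPM. Anxa13 had 10.4 CPM in Trp53ΔIEC replicate 1, against 0.639 to 2.29 CPM. S100a7a had 2.75 CPM in Trp53ΔIEC replicate 4, against 0.536 to 0.782 CPM.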

How the results depend on the processing

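With limma-voom, DESeq2 size factors in edgeR, no filter on low counts, the replicate block and the title letter as a term, 0 of the 7 genes was called higher, and Spp1 had log2 fold changes of 3.05, 3.28, 3.31, 3.02 and 1.85. With 1 tumour left out its log2 fold change was 2.37 to 3.65 and 0 to 1 of the 7 genes was called higher; 0 were called lower under any of the 16 alternatives. Among related genes DESeq2 called 10 higher and 4 lower of 100 fitted (9 and 4 of the 96 tested in edgeR), the block 0 higher and 0 lower, the letter 1 higher and 0 lower, no filter 1 lower of 100, and leaving out a tumour 0 to 5 higher and 0 to 2 lower. Over all genes DESeq2 called 1715 higher and 764 lower, the block 48 and 2, the letter 90 and 6, and leaving out a tumour 64 to 702 higher and 10 to 247 lower, against 569 and 125. The higher share of calls was 82.0%, and 69.2% with DESeq2, 96.0% with the block and 93.8% with the letter. Anxa3, at 5.84e-05, was -0.015 with DESeq2, -0.094 with limma-voom, -0.010 with DESeq2 size factors, -0.066 with the block, -0.33 with the letter and -0.19 to 0.28 with 1 tumour left out. Clu was -0.082 with the block, -0.92 with the letter and -0.91 to 1.01 with 1 tumour left out; Ly6a was -0.17 to 0.42 and Il1rn -0.53 to 0.067. Of related genes, Vldlr turned to -0.37 with the letter, and Lrp8 was 0.11 with the letter and -0.30 to 0.24 with 1 tumour left out. Anxa1 and S100a6 kept their sign under all 16. The cause of these changes was not tested. Tumours with the same replicate number come from different mice, and their deviations from the group means had correlations of -0.243 to 0.0093; 0 tumours correlated best with their own number, so the block pairs tumours that share only a number. Every member had at least 589 reads per library, so counting error is small. These intervals rest on 4 tumours per group and on the spread between them.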

Other observations

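The reads of the interleukin-1 genes Il1a and Il1b were set against those of their antagonist Il1rn within each library, a ratio that no scaling of the libraries changes. This ratio was chosen after the values had been seen, so it is given with no test. Replicates 1 to 4 of Trp53ΔIEC had ratios of 0.273, 0.379, 0.249 and 0.318. Those of Trp53ΔIECAktE17K had 0.486, 1.83, 2.43 and 0.618, so the groups did not overlap. The means were 0.305 ± 0.0571 and 1.34 ± 0.945 (SD, n = 4 each). The difference of the mean log2 ratio was 1.84, and 1.45 to 2.22 with any 1 tumour left out. In Trp53ΔIECAktE17K replicate 2 the high ratio came with 7470 Il1b reads, the most of any tumour, and in replicate 3 with 903 Il1rn reads, the fewest. Il1rn itself overlapped between the groups.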
